A study of Rattus norvegicus with 19 samples.

Results

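The genes described here are 9 genes of the myelin sheath and the oligodendrocyte: Mbp, Mobp, Cnp, Mag, Mog, Opalin, Ugt8, Aspa and Pmp2. They were chosen by name from a list of myelin genes, and every probe set annotated to 1 of their symbols alone was taken. All 9 were found, with 15 of the 31042 probe sets tested and out of 14217 genes that had such a probe set. Mbp and Mobp had 3 probe sets each, Cnp and Ugt8 had 2 each, and the other 5 genes had 1 each. Where a gene had several, the one with the highest mean over the arrays stands for it, and the others are numbered after it in order of their mean.

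RNA was measured on 19 microarrays from the motor cortex of adult female Fischer 344 rats of 150 to 200 g. A wire knife was used to cut the dorsal columns of the spinal cord at the third cervical segment, which severs corticospinal axons far from their cell bodies. The forelimb and hindlimb motor cortex was dissected and its lower part, with layer V, was kept. The groups were control rats (n = 4) and rats at day 1, day 3, day 7, day 14 and day 49 after the lesion (n = 3 each). All groups shared the strain, the sex and the tissue. The labels do not say whether the controls had an operation, nor whether an array holds 1 rat or a pool. They name separate samples, so the p-values measure the spread between these samples.

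Oligodendrocytes wrap axons of the central nervous system in myelin, a stack of membranes rich in galactolipids and cholesterol and held together by a few abundant proteins. Myelin is dense in white matter and thinner in the cortex, where its amount grows toward the deep layers. The level of myelin transcripts in a cortical sample therefore depends on how much deep cortex or underlying white matter the dissection held as well as on the oligodendrocytes in it. The factors SOX10 and MYRF switch on many myelin genes in differentiating oligodendrocytes.

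Windows of 250 bases before a RefSeq start (rat build GRCr8) were read for 7 of the 9 genes, 8 windows in all. Set against the full span of each gene, the windows of Cnp and Ugt8 and 1 of Mbp lie wholly before it. Those of Mag, Opalin and Mobp reach into it, and that of Aspa and the other of Mbp lie inside it, so their starts are not the outermost ones. They are shown because motifs of the factors that drive myelin genes can be looked for in them. The MYRF motif was searched as CTGGCAC or CTGGTAC on both strands, and 5.48% of all 33469 windows of that length held it. It occurred in the windows of Mag, Opalin and Cnp and in none of those of Ugt8, Mobp, Aspa and Mbp. Counted from the start that ends each window, the match began 94 bases before it in Mag, 17 bases before it in Opalin, and 124 bases before it in Cnp. The Opalin match lies inside the gene's span, that of Mag at its edge and that of Cnp before it. The stretches around the matches, with the motif in capitals, read as follows, that of Opalin on the strand opposite to the gene.
Mag: caggcggcccCTGGCACccagggggca
Opalin: ttctctctcaCTGGCACtgtaggtctg
Cnp: cagctgcttcCTGGCACccaggtttcg
A SOX motif, searched as ACAAAG or ACAATG on both strands, was in 25.3% of all windows. It occurred 8 times in the window of Mobp, 3 times in that of Opalin, once each in those of Mag, Aspa and Cnp, and not in that of Ugt8. Of the Mbp windows, 1 held 3 matches and the other 0. The whole windows of Cnp and Ugt8 are shown because the former held both motifs and the latter neither, and because Ugt8 was among the genes with signals below control after the lesion. Cnp lies on the plus strand, with its window at chr10:86011254-86011503, and Ugt8 on the minus strand, with its window at chr2:217007168-217007417. Capitals mark the SOX and MYRF matches, and 81.2% of the bases in the Ugt8 window are G or C against 60.4% in that of Cnp.
Cnp: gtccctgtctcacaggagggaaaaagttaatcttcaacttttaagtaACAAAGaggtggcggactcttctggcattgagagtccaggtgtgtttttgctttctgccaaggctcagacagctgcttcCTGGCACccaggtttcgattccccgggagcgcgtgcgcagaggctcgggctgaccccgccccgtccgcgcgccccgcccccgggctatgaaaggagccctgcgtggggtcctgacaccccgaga
Ugt8: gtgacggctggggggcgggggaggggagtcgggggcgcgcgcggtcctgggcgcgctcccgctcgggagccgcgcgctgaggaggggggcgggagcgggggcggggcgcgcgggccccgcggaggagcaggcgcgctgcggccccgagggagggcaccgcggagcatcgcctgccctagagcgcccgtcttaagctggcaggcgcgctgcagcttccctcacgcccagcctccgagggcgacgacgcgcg
A match is a description of the letters and not a binding site, and no binding was measured here.

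The arrays were closely alike apart from day 14 replicate 2 and day 49 replicate 2. The median correlation with the other arrays was 0.931 and 0.969 in these and lay between 0.994 and 0.997 in the other 17. The beta-actin 3' signal minus its 5' signal, which grows as RNA is degraded or copied incompletely, was 2.24 (log2) in day 14 replicate 2, 0.85 in day 49 replicate 2 and 0.88 to 1.29 in the other 17. The same difference for GAPDH was 3.18 in day 14 replicate 2, -0.006 in day 49 replicate 2 and 0.001 to 0.196 in the other 17. The fit of all 19 arrays is the main one, and values from the fit of the 17 are named as such. The differences at days 1, 3 and 7 are the same in both, since no array of those times is left out, while their errors differ. Each signal is the authors' log2 RMA value. Signals of different genes or probe sets are not set against each other, since probe sets differ in response.

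In day 14 replicate 2 several myelin probe sets lay far below the other arrays. The brightest Mbp probe set differed from its mean over the 17 arrays by -3.82 (log2) there, and the second Mbp probe set by -5.12. The second Cnp probe set differed by -3.39 and Ugt8 by -2.26. In that array 4 of the 15 probe sets were more than 2 below their 17-array mean, against 3.08% of all 31042 probe sets, and 5 were more than 1 below, against 8.56%. Other probe sets of Mbp and Cnp differed less, by -0.21 for the brightest Cnp probe set and by -0.66 for the third Mbp probe set. The second Ugt8 probe set differed by 0.10, but with a mean of 3.02 over the 17 arrays and a lowest value of 2.64 in the whole table it had no room for a drop like that of the first. Aspa differed by -0.02 and Mag by 0.27. For Mbp and Cnp the size of the gap thus depended on the probe set read. The position of the probe sets along the transcripts was not analysed here, and the part of RNA quality in these values was not tested. In day 49 replicate 2 only Ugt8 was more than 1 below its 17-array mean, with a difference of -1.07.

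**Figure D1:**
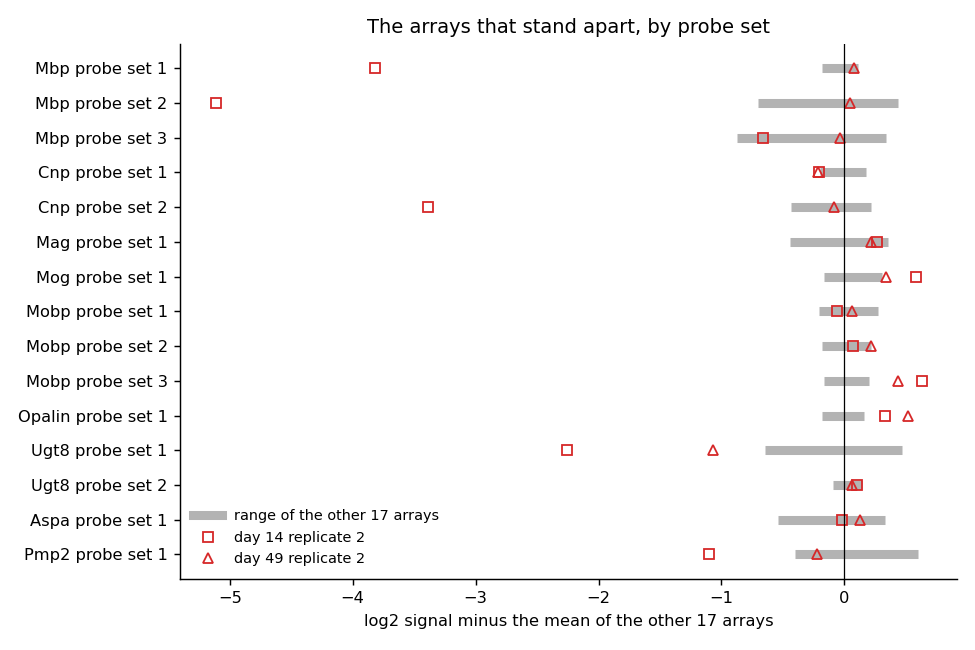
Log2 signal minus the mean of the other 17 arrays (horizontal axis) for each of the 15 probe sets (vertical axis), with day 14 replicate 2 as squares, day 49 replicate 2 as triangles and the range of the 17 arrays as grey bars. Squares lie far to the left for 2 Mbp probe sets, 1 of Cnp and 1 of Ugt8, while the other probe sets of Mbp and Cnp lie within or near the bars.

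Across the comparisons with control, each gene is read by its brightest probe set. The genes whose arrays lay below every control array at some time were Pmp2, Ugt8 and, at day 1 alone, Aspa. Mbp did so at day 49 once day 49 replicate 2 was left out. The most negative difference of all, -1.25 for Mbp at day 14, came with day 14 replicate 2 and was 0.03 without it. In the fit of all 19 arrays 0 of the 9 genes passed an adjusted p of 0.05 at any time, and the smallest adjusted p over the 9 was 0.671 at day 1, 1.00 at days 3 and 7, 0.365 at day 14 and 0.306 at day 49. Of all probe sets, 0.0354% passed at day 1 and 0.0% at each of the other times. At an unadjusted p under 0.05 those other times had 282, 275, 4069 and 4783 probe sets. In the fit of 17 arrays 1 of the 9 passed, Pmp2 at day 1, where 0.219% of all probe sets did, and 0 of the 9 passed at the other times. The block by replicate number left 3 probe sets called at day 1 in place of 11, and 0 of the 9 genes. In tissue RNA, fewer cells of a type and less RNA per cell cannot be told apart.

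**Figure D2:**
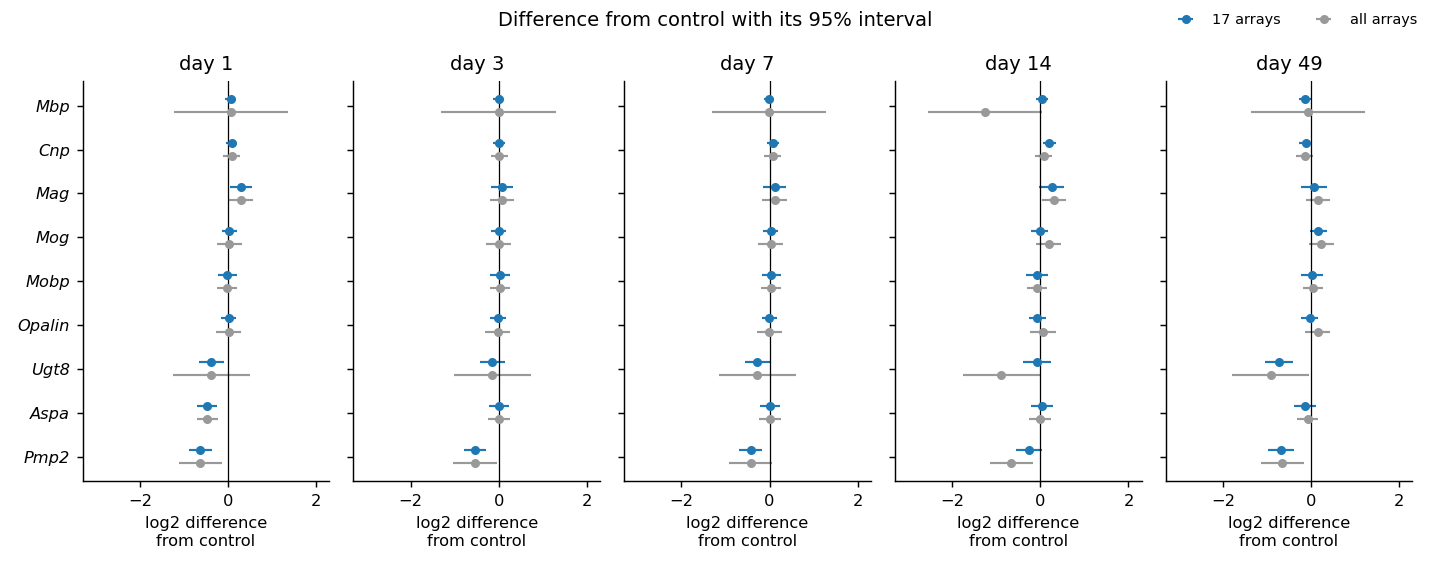
Log2 difference from control (horizontal axis, 1 panel for each time) with its 95% interval for the brightest probe set of each gene (vertical axis), from the fit of 17 arrays in blue and of all 19 arrays in grey. Pmp2 lies left of 0 at every time and Ugt8 is lowest at day 49, while the intervals of Mbp from all arrays are wide because of day 14 replicate 2.

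Mbp encodes myelin basic protein, which binds the inner faces of the membrane together to form compact myelin. Its signals were 12.72, 12.72, 12.65 and 12.58 in the control arrays and 12.66, 12.76 and 12.77 at day 1. They were 12.68, 12.59 and 12.72 at day 3 and 12.70, 12.61 and 12.66 at day 7. At day 14 they were 12.75, 8.84 and 12.64, and at day 49 they were 12.57, 12.74 and 12.48. Only day 14 replicate 2 stood far from the rest, and the lesion arrays otherwise overlapped the controls at every time up to day 14. Over the 17 arrays the pooled SD within groups was 0.063, and 9.7% of all probe sets had a smaller one; over all 19 it was 0.876. The difference from control at day 1 was 0.06, with an interval from -0.06 to 0.19 in the 17 arrays. At day 49 it was -0.15 (SE 0.07) in the 17 arrays, both of them below every control array, with an adjusted p of 0.391. With all 19 arrays the day 49 difference was -0.07 and the arrays overlapped, and the day 14 difference was -1.25 (SE 0.61) against 0.03 without replicate 2. The highest value in the whole table was 13.9, so Mbp sat near the upper end of the scale, where a change may be read as smaller than it is.

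In the 17 arrays the second Mbp probe set differed from control in the same direction as the first at every time. The third went the other way at days 3, 7 and 49. The second had a control mean of 11.40 ± 0.27 (SD, n = 4) and in the 17 arrays differed from control by -0.60 at day 49 (SE 0.19), with both arrays below all controls and an adjusted p of 0.238. With all 19 arrays that difference was -0.43 (SE 0.85). The third had a control mean of 6.23 ± 0.43 (SD, n = 4) and was 6.78 ± 0.05 (SD, n = 3) at day 3, above every control array. That difference of 0.54 had an unadjusted p of 0.00972 and an adjusted p of 1.00 in limma's test over all arrays, and an adjusted p of 0.936 in the 17. So at day 3 and at day 49 the third Mbp probe set differed in sign from the first and the second, and none of the 3 passed the threshold.

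Mobp, the myelin-associated oligodendrocyte basic protein, is another small basic protein of compact myelin. All 3 of its probe sets lay below the median probe set of the table, 5.60, where RMA signals move little, so a change of the transcript could be missed. The brightest was 3.84 ± 0.10 (SD, n = 4) in control and between 3.63 and 4.12 over the 15 lesion arrays, which overlapped the controls at each time. Its differences from control ran from -0.07 to 0.04 in both fits. The second Mobp probe set was 3.62 ± 0.09 (SD, n = 4) in control. It was 3.78 ± 0.08 (SD, n = 3) at day 14 and 3.83 ± 0.04 (SD, n = 3) at day 49, above all controls at both times. The F test over all times gave it an unadjusted p of 0.00448 and an adjusted p of 0.724 in all arrays, and an adjusted p of 0.448 in the 17.

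Cnp encodes the cyclic nucleotide phosphodiesterase of non-compact myelin, which keeps cytoplasmic channels open in the sheath. Its signals were 10.20, 10.17, 10.19 and 9.97 in control, 10.24, 10.19 and 10.21 at day 1, and 10.11, 10.11 and 10.20 at day 3. At day 7 they were 10.25, 10.10 and 10.28. The arrays of day 14 gave 10.34, 9.96 and 10.32, and those of day 49 gave 9.999, 9.95 and 10.02. Without replicate 2 the day 14 arrays were the highest of the series and lay above every control array, and the day 49 arrays were among the lowest but overlapped control replicate 4. In the 17 arrays the difference from control was 0.20 at day 14 (SE 0.07, adjusted p = 0.820) and -0.12 at day 49 (adjusted p = 0.540). With all arrays these were 0.08 and -0.14. The second Cnp probe set gave 0.21 at day 14 and -0.30 at day 49 in the 17 arrays, the same signs as the first, and neither passed. Unlike the first, its day 49 arrays of the 17, at 7.995 and 7.703, lay below the lowest control array, 8.005. Day 49 replicate 2, at 8.056, did not.

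Mag, Mog and Opalin encode membrane proteins of the oligodendrocyte. The product of Mag lies on the inner wrap next to the axon, that of Mog on the outer surface of the sheath, and that of Opalin is a transmembrane protein of the mature cell. Mag signals were 5.93, 5.97, 5.46 and 5.74 in control and 6.26, 6.12 and 5.82 at day 1, where they overlapped. The difference at day 1 was 0.29 (SE 0.12, 17 arrays), with an unadjusted p of 0.0264 and an adjusted p of 0.632. Of the 15 lesion arrays, 14 lay above the control mean of Mag, which the low control replicate 3 pulled down. At day 14 the Mag difference was 0.30 with all arrays and 0.26 without replicate 2, and the arrays overlapped the controls.

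Mog was 4.06 ± 0.11 (SD, n = 4) in control and lay between 3.94 and 4.39 in the 13 lesion arrays of the 17. The highest Mog signals, 4.67 and 4.42, were those of day 14 replicate 2 and day 49 replicate 2. Its difference at day 49 was 0.23 with all arrays and 0.17 (interval -0.03 to 0.36) without them. Opalin was 3.87 ± 0.08 (SD, n = 4) in control and between 3.67 and 4.01 in the 13 lesion arrays, and its highest signals, 4.37 and 4.18, were again those of the same arrays. In the 17 arrays its differences from control ran from -0.07 to 0.01, and with all arrays from -0.02 to 0.15, the highest being that of day 49. Both genes lay below the median probe set. The arrays that stood apart were thus low for Ugt8 and high for these dim probe sets.

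Ugt8 encodes the enzyme that makes galactosylceramide, the main galactolipid of myelin. Its signals were 9.01, 8.82, 8.61 and 8.67 in control, 8.26, 8.57 and 8.36 at day 1, and 8.62, 8.33 and 8.96 at day 3. At day 7 they were 8.45, 8.42 and 8.64. The arrays of day 14 gave 8.66, 6.29 and 8.73, and those of day 49 gave 8.21, 7.48 and 7.90. Of the 15 lesion arrays, 14 were below the control mean and 10 below every control array, and without the arrays that stood apart 8 of 13 were below every control array. All 3 arrays of day 1 and all 3 of day 49 lay below the controls. The difference at day 49 was -0.92 with all arrays (adjusted p = 0.316) and -0.72 (SE 0.15, interval -1.04 to -0.41) in the 17, with an unadjusted p of 0.000212 and an adjusted p of 0.226. At day 1 the difference was -0.38 in both fits, with an adjusted p of 1.00 and 0.485. The second Ugt8 probe set, near the bottom of the scale with a control mean of 2.99, showed differences between -0.004 and 0.09 in the 17 arrays.

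Among the 9 genes, Ugt8 was also the one whose signal went most with the beta-actin measure of RNA quality in the 17 arrays. Over the 17 arrays its correlation with the beta-actin 3' minus 5' signal was r = -0.77 (permutation p = 0.00022, adjusted over the 9 genes 0.00198) and Spearman's rho was -0.75 (permutation p = 0.00088, adjusted 0.00792). Without the 2 arrays farthest from the median of that measure r was -0.66. For Pmp2 the correlation was r = -0.55 and rho = -0.55 (permutation p = 0.0228 and 0.0249, adjusted 0.103 and 0.112). Neither Pmp2 nor any of the other 7 genes passed after adjustment. The day 49 array with the lowest Ugt8 signal of the 17, replicate 3, had the highest beta-actin value of the 17, 1.29. With that measure as a covariate the day 49 difference of Ugt8 in the 17 arrays was -0.46 in place of -0.72 (adjusted p = 0.778). Without the covariate its adjusted p there was 0.226. With all arrays the covariate left the difference at -0.74 in place of -0.92, with an adjusted p of 0.115 in place of 0.316. So the adjusted p rose in the 17 arrays and fell with all arrays, and neither fit passed. The fit of all arrays holds day 14 replicate 2, where the measure was 2.24. The beta-actin measure itself differed between groups, at 0.88 to 1.09 in the controls and 1.10 and 1.29 in the day 49 arrays of the 17. The correlations run over arrays of all groups, so they hold differences between groups as well as within them. The parts of RNA quality and of the lesion were not tested apart. The comparison with beta-actin was made after the Ugt8 values were seen.

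Aspa encodes aspartoacylase, which splits N-acetylaspartate in oligodendrocytes and frees acetate for lipid synthesis. Its signals were 7.49, 7.49, 7.54 and 7.30 in control and 6.82, 6.99 and 7.15 at day 1. At day 3 they were 7.28, 7.43 and 7.69. All 3 arrays of day 1 lay below every other array of the series for this gene. At day 7 they were 7.65, 7.37 and 7.37, at day 14 7.58, 7.35 and 7.41, and at day 49 7.23, 7.49 and 7.41. The difference from control at day 1 was -0.47 (SE 0.11), a level 1.38 times higher in control, with an unadjusted p of 0.000908 in the fit of all arrays and 0.000511 in that of 17. The adjusted p was 0.671 and 0.139. From day 1 to day 3 Aspa differed by 0.48, with an adjusted p of 0.906 in all arrays and 0.146 in the 17. From day 3 on its differences from control ran from -0.08 to 0.01 with all arrays. The day 1 arrays enter both of these comparisons, so they are not independent of each other. The beta-actin measure left the day 1 difference at -0.49 in the 17 arrays, and over them it had r = -0.07 with Aspa.

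Pmp2 encodes a fatty acid binding protein of myelin, found in peripheral nerve and in parts of the central nervous system. Its signals were 9.40, 9.36, 9.08 and 8.93 in control, 8.52, 8.64 and 8.52 at day 1, and 8.70, 8.40 and 8.86 at day 3. The arrays of days 1 and 3 all lay below every control array. At day 7 they were 8.61, 8.73 and 8.97, at day 14 8.90, 7.70 and 8.99, and at day 49 8.49, 8.58 and 8.54. All 15 lesion arrays were below the control mean and 13 of them below every control array, and the exceptions were day 7 replicate 3 and day 14 replicate 3, which lay just above control replicate 4.

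In the 17 arrays Pmp2 fell at day 1 by 0.63 on the log2 scale (SE 0.12), a level 1.55 times higher in control, with an adjusted p of 0.0464 in limma's test. In the fit of all arrays the same difference had an SE of 0.23, an unadjusted p of 0.0146 and an adjusted p of 1.00. The call was thus absent when the arrays that stood apart counted in full. With array weights in limma, which kept them at weights of 0.037 and 0.067, the difference was -0.72 and the adjusted p 0.00278. In the 17 arrays the call was lost with the beta-actin measure as a covariate, where the difference was -0.58 and the adjusted p 0.0875. The differences in the 17 arrays were -0.54 at day 3 (adjusted p = 0.759), -0.42 at day 7 (adjusted p = 0.986), -0.25 at day 14 (adjusted p = 0.891) and -0.68 at day 49 (adjusted p = 0.226). With all arrays the day 14 difference was -0.66, most of it from replicate 2, and the day 49 difference was again -0.66. The 5 comparisons share the same 4 control arrays, 2 of which hold the highest Pmp2 signals of the series, so a shared sign over the times is not 5 separate findings. The F test over all times gave Pmp2 an adjusted p of 0.192 in the 17 arrays and 0.724 in all 19.

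**Figure D3:**
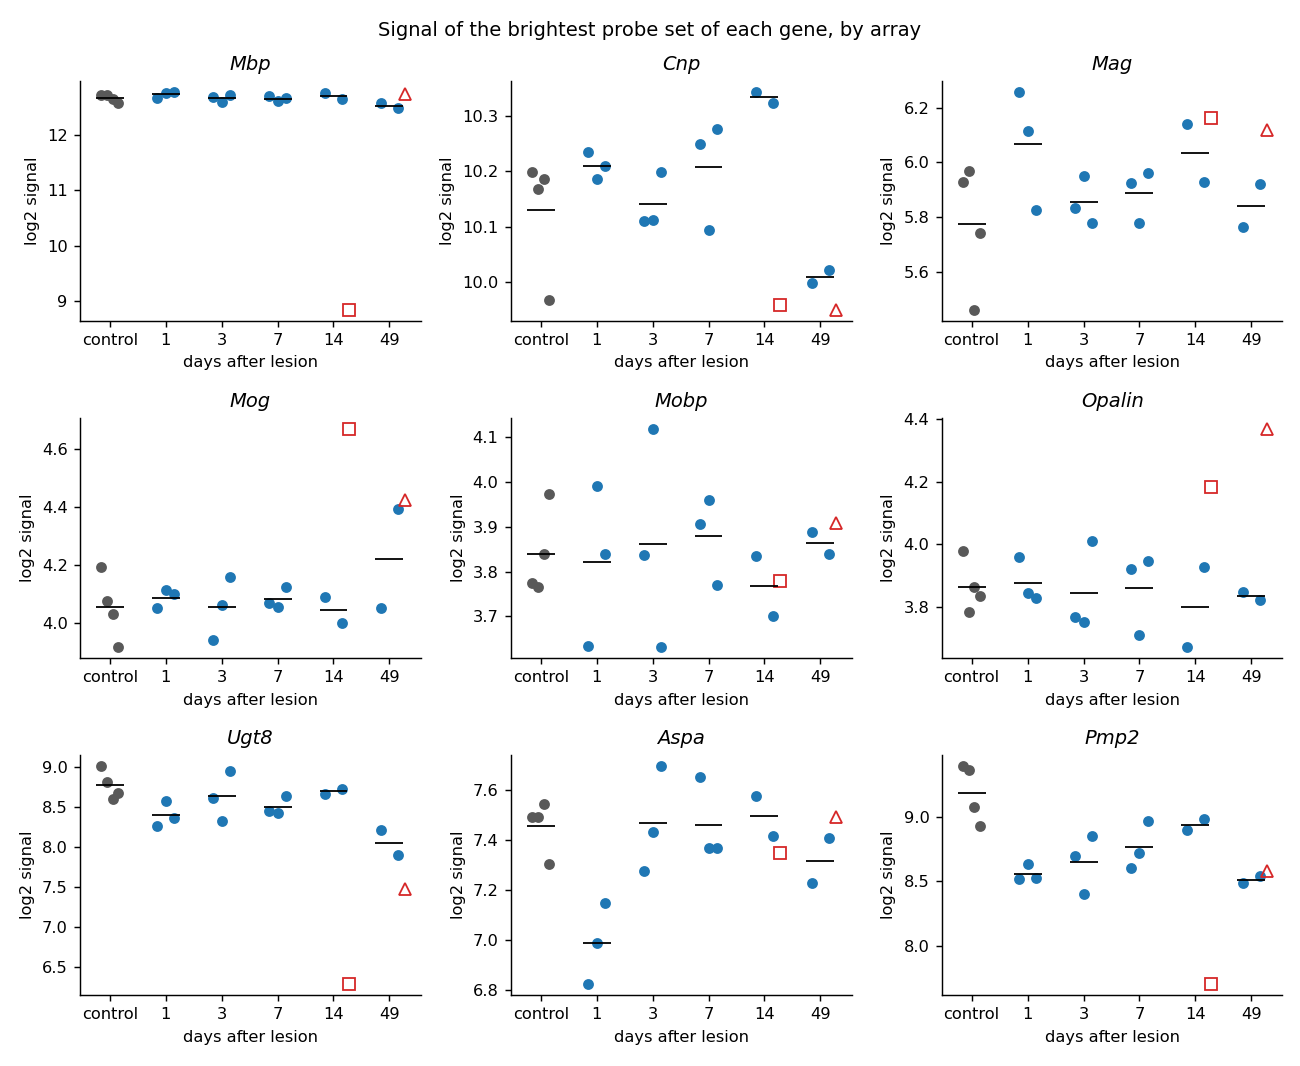
Log2 signal of the brightest probe set (vertical axes, each on its own range) against the group (horizontal axes, control and days after lesion), 1 panel for each gene and 1 point for each array, with bars at the group mean over the 17 arrays. Day 14 replicate 2 is drawn as a square and day 49 replicate 2 as a triangle; Aspa is low at day 1, Ugt8 at day 49, and Pmp2 in most lesion arrays.

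Counted over the 9 genes, the arrays of day 1 lay below all controls for 3 (Aspa, Pmp2 and Ugt8), where 2.54% of all probe sets did so, and above them for 0, where 4.4% did. At day 3 this held for 1 gene, Pmp2, against 2.82% of probe sets, and at days 7 and 14 for 0 (4.19% and 2.62%). At day 49 it held for Pmp2 and Ugt8 with all arrays, against 4.8%, and for these and Mbp with 17 arrays, against 7.13%. At days 1, 3 and 7 both fits use the same arrays, and at day 14 without replicate 2 the count below was again 0 (5.77%). Above all controls there was 1 gene, Cnp at day 14 in the 17 arrays, against 8.82%. The median difference over the 9 genes stayed near that over all genes at the early times. It was 0.01 at day 1, 0.00 at day 3 and 0.01 at day 7, beside 0.01, -0.01 and 0.01 for all genes. At day 14 it was -0.01 in both fits, beside 0.06 for all genes in all arrays and 0.01 in the 17. At day 49 it was -0.07 with all arrays and -0.12 with 17, beside -0.03 and 0.00. These medians depended on which probe sets were read. With probe sets below the median of the table left out, which removes 3 of the 9 genes, the median was -0.16 at day 1 and -0.34 at day 14 with all arrays. The day 14 value includes replicate 2. With it Mbp, Ugt8 and Pmp2 differed by -1.255, -0.885 and -0.661, and in the 17 arrays by 0.03, -0.082 and -0.248. Cnp, Mag and Aspa differed by 0.078, 0.303 and -0.01 with it, and in the 17 arrays by 0.203, 0.261 and 0.039. At day 49 it was 0.028 over all 15 probe sets and 0.039 with the beta-actin covariate, both above 0.

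How the genes vary together was looked at over the 17 arrays, in 36 pairs of genes with permutation p-values adjusted over the pairs. Only Pmp2 and Ugt8 passed, with r = 0.80 (permutation p = 6e-05, adjusted 0.00216) and Spearman's rho = 0.85 (permutation p = 3e-05, adjusted 0.00108). Without the 2 arrays farthest from the median r was 0.73, within groups it was 0.78 and over the 13 lesion arrays alone it was 0.76. After the beta-actin measure was taken out of both genes by a straight line, r was 0.70. Mbp and Cnp had r = 0.67 (permutation p = 0.00337, adjusted 0.0607). Of the 36 pairs, 19 had r above 0.

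**Figure D4:**
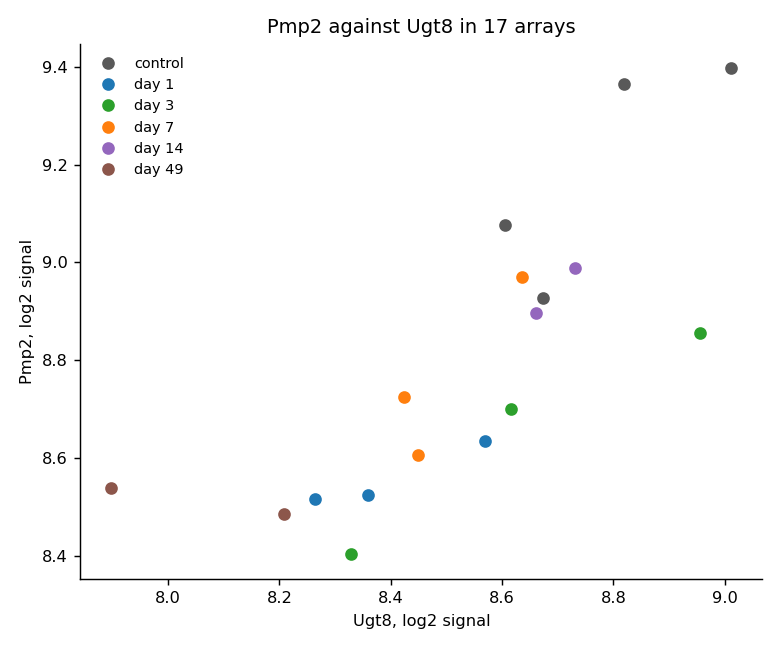
Log2 signal of Pmp2 (vertical axis) against that of Ugt8 (horizontal axis) in the 17 arrays, 1 point for each array, coloured by group. The points run from the low left, with days 1 and 49, to the high right, with control replicates 1 and 2 (r = 0.80).

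Other genes of myelin and of the oligodendrocyte lineage came from lists made with earlier results of these data known. Of 35 other genes of the sheath and the mature oligodendrocyte, 30 had a probe set. In all arrays 0 of the 30 passed at any time. In the 17 arrays 1 passed, Adamts4 at day 1, where 17 genes were higher and 13 lower and the median difference was 0.03. Adamts4, a protease made by oligodendrocytes and by reactive glia, rose by 0.60 (SE 0.11, adjusted p = 0.0437) in limma's test of the 17 arrays, and with all arrays its adjusted p was 0.230. All 3 of its day 1 arrays lay above every control array. Its differences at days 3, 7, 14 and 49 in the 17 arrays were 0.43, 0.31, 0.39 and 0.33, and none passed. Evi2a had the most negative day 1 difference of the 30, -0.79, with an adjusted p of 0.317 in the 17 arrays, and is named after its values were seen.

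At day 49 the signs of these 30 genes were uneven: 7 were higher and 23 lower in the 17 arrays, with a median of -0.09 beside 0.00 for all genes. None of them passed, against 0.0% of all probe sets. At an unadjusted p under 0.05 there were 2 higher and 5 lower, against 4.7% and 7.34% of all probe sets. Jam3, a junction protein, differed by -0.30 in the 17 arrays (adjusted p = 0.226) and by -0.36 in all. Car2, a carbonic anhydrase, differed by -0.15 in the 17 arrays (adjusted p = 0.608) and by -0.11 in all, and its most negative value was -0.29 at day 1 (adjusted p = 0.400 in the 17). Gsn, the actin-severing protein gelsolin, differed by -0.13 at day 49 in both fits. At days 3 and 7 it differed by -0.34 and -0.31, with all arrays below the controls and adjusted p-values of 0.934 and 0.986 in the 17. With all arrays the 30 genes had a median of -0.12, with 8 higher and 22 lower.

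Of 19 genes of sheath lipid synthesis and turnover, 15 had a probe set and 0 passed at any time in either fit. Galc, the lysosomal enzyme that breaks down the product of Ugt8, differed by -0.03 at day 1 and at day 49 by 0.06 in the 17 arrays and by -0.06 in all. Ugcg, which adds glucose instead of galactose to ceramide, differed by -0.23 at day 1 and by -0.30 at day 49 in the 17 arrays (adjusted p = 0.725 and 0.388), and by -0.43 at day 49 in all. The elongases Elovl1 and Elovl5 differed by 0.17 and -0.06 at day 1. So neither the enzyme after Ugt8 nor its counterpart passed a test.

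Of 15 regulators of the lineage, 14 had a probe set and 0 passed in either fit. Sox10 differed by 0.19 at day 1 (SE 0.10, adjusted p = 0.723) and Myrf by -0.06 (SE 0.10, adjusted p = 0.925) in the 17 arrays, and at day 49 by 0.06 and 0.22. With all arrays the day 49 values were 0.07 and 0.15, and Sox10 differed by 0.34 at day 14 against 0.16 in the 17. Zfp488 lay 0.26 above control at day 14 and 0.23 above it at day 49 in the 17 arrays, with its arrays above all controls and adjusted p-values of 0.852 and 0.348. Id2, an inhibitor of differentiation, differed by 0.55 at day 3 (SE 0.28, adjusted p = 0.999) and by 0.19 at day 49 (SE 0.32) in the 17 arrays. Of 16 genes of oligodendrocyte precursors 13 had a probe set, and again 0 passed. Pdgfra, the receptor that marks precursors, differed by 0.06 at day 1, -0.25 at day 7 and -0.04 at day 49 in the 17 arrays, and by -0.29 at day 49 in all. Bcas1, which marks cells at the onset of myelination, differed by -0.14 at day 1, 0.04 at day 3, 0.18 at day 7, 0.27 at day 14 and 0.04 at day 49 in the 17 arrays. Its arrays of days 7 and 14 lay above all controls, with adjusted p-values of 0.986 and 0.704, and with all arrays the day 14 difference was 0.11. Ptprz1, a receptor phosphatase of precursors and astrocytes, differed by -0.60 at day 49 with all arrays and by -0.13 in the 17, and at day 3 by 0.26, above all controls (adjusted p = 0.999 in the 17). Tmem100 differed at day 49 by -0.69 and -0.34, with its arrays below all controls and adjusted p-values of 0.306 and 0.239.

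Because Pmp2 is abundant in peripheral nerve, 9 Schwann cell genes were also read, of which 6 had a probe set. In the 17 arrays 1 passed: Drp2, a dystrophin-related protein of Schwann cells that neurons also express, rose by 0.50 at day 1 (SE 0.08, adjusted p = 0.00752). With all arrays its adjusted p was 1.00. Egr2, a regulator of peripheral myelin that is also induced by activity in neurons, differed by -0.39 at day 1 (adjusted p = 0.448), below all controls. Pmp22 differed by -0.01 and Sox2 by 0.03. The median of the 6 genes at day 1 was 0.01, with 3 higher and 3 lower. The mean of the list minus its control mean ran from 0.02 to 0.04 in the day 1 arrays and from -0.12 to 0.11 in the controls.

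As a gauge of white matter in the dissection, the mean of the 9 genes minus their control mean was read in each array. It ran from -0.19 to 0.10 over the 17 arrays and was -0.76 in day 14 replicate 2. By group it was -0.11 ± 0.05 (SD, n = 3) at day 1, -0.06 ± 0.08 (SD, n = 3) at day 3 and -0.05 ± 0.06 (SD, n = 3) at day 7. It was 0.02 and -0.01 in the day 14 arrays of the 17. At day 49 it was -0.14 ± 0.06 (SD, n = 3) with all arrays. The day 49 arrays of the 17 gave -0.19 and -0.16, below the controls at -0.09 to 0.10, and replicate 2 gave -0.08. The SD among the 4 controls was 0.09. The genes behind this mean did not share a sign. At day 1 Aspa, Pmp2 and Ugt8 differed by -0.47, -0.63 and -0.38, while Mbp, Cnp and Mag differed by 0.06, 0.08 and 0.29. Of the 9 genes 5 were higher and 4 lower. Over the 17 arrays the mean had a Spearman correlation of 0.91 with Ugt8, 0.80 with Pmp2 and -0.45 with Mobp. Mobp, Mog and Opalin lay below the median probe set and Mbp near the upper end of the scale, which limits what their signs show. The group values of the mean were therefore not read as an amount of white matter. The part of the dissection in them was not tested. The mean of the 30 other myelin genes ran from -0.11 to 0.05 over the 17 arrays, and in day 14 replicate 2 it was -0.08. A mean over more genes tends to vary less, so its range is not compared with that of the 9. Other lists lay farther from control in that array: the sheath lipid list at -0.32, the Schwann cell list at -0.41, the neuron list at -0.36 and the list of lineage regulators at 0.39.

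Lists of 10 other tissues and cell types were read in the same way, with 99 genes matched, and are given by their mean minus its control mean in each array. Over the 17 arrays the layer V list ran from -0.03 to 0.04, that of layers II to IV from -0.06 to 0.12 and that of layer VI and subplate from -0.23 to 0.11. The neuron list ran from -0.20 to 0.11, the astrocyte list from -0.09 to 0.17, the microglia list from -0.19 to 0.30 and the endothelium list from -0.12 to 0.20. The list of meninges and choroid plexus ran from -0.41 to 0.16, the striatum list from -0.10 to 0.11 and the hippocampus list from -0.14 to 0.06. At day 1 the astrocyte list lay between 0.14 and 0.17, above its control arrays at -0.09 to 0.07, with 8 of its 11 genes higher. Its mean leaned on Gfap and Fabp7, which differed by 0.635 and 0.714, while Glul and Gja1 differed by 0.095 and -0.009. The endothelium list lay between 0.04 and 0.20 at day 1, against -0.06 to 0.06 in the controls, so the groups overlapped, with 8 of its 9 genes higher. These are the arrays in which Aspa, Pmp2 and Ugt8 lay below all controls, and the part of these lists in those values was not tested. The astrocyte list was 0.12 and 0.16 in the day 14 arrays of the 17 and -0.03 and -0.001 in those of day 49. In the comparisons with control 0 of the 99 genes passed with all arrays and 1, Lum of the meninges list, was lower at day 1 in the 17.

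**Figure D5:**
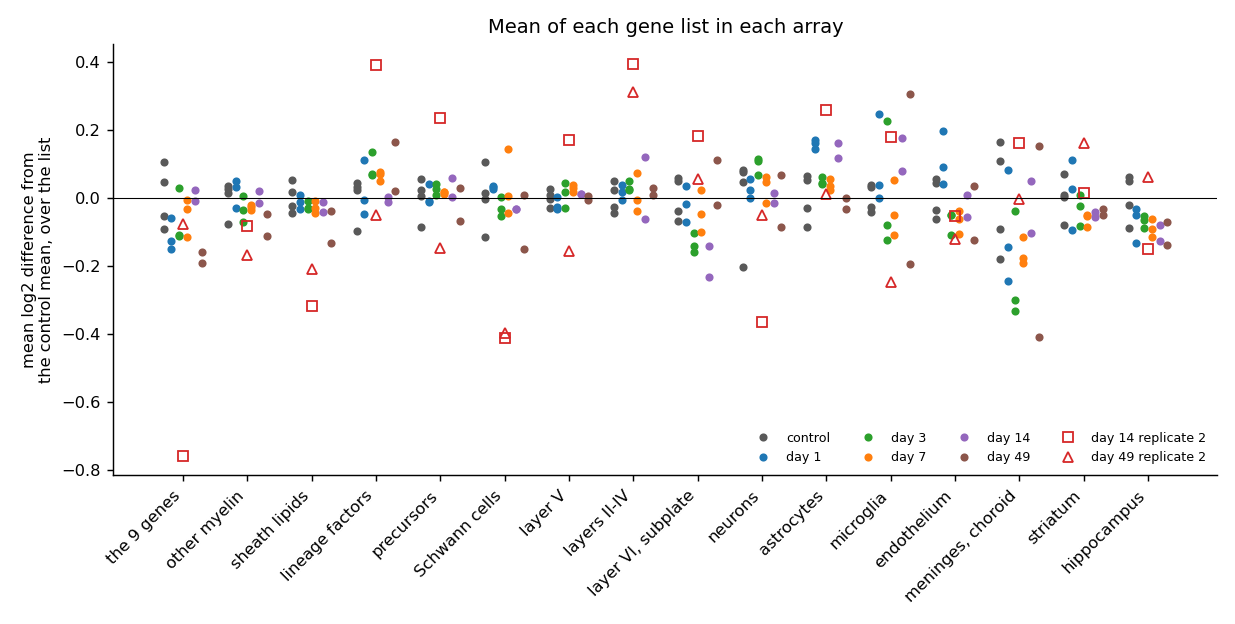
Mean log2 difference from the control mean (vertical axis) of each gene list (horizontal axis), 1 point for each array, coloured by group, with day 14 replicate 2 as squares and day 49 replicate 2 as triangles. The square for the 9 genes, at -0.76, lies far below the other arrays, the one for the 30 other myelin genes lies at -0.08, and those for sheath lipids, Schwann cells and neurons lie between -0.41 and -0.32.

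Other genes were ranked by Spearman's correlation with the mean of the 9, each centred, over the 17 arrays, among 14208 other genes. That mean followed some of the 9 far more than others: its correlation was 0.91 with Ugt8, 0.80 with Pmp2, 0.69 with Aspa and 0.51 with Mbp and with Cnp. It was 0.29 with Opalin, 0.28 with Mog, 0.25 with Mag and -0.45 with Mobp, so the ranking is mostly of genes like Ugt8 and Pmp2. The 8 highest were Pam (0.79), Cnn3 (0.79), Tnfrsf11a (0.78), Septin2 (0.78), Timp2 (0.77), Nucb1 (0.77), Pllp (0.76) and Apaf1 (0.76). Of these only Pllp, the proteolipid plasmolipin of myelin, was in a list of myelin genes. Cd9, Plekhb1 and Mal, other genes of the sheath, stood at ranks 39, 55 and 157 with 0.70, 0.68 and 0.60. Over all 19 arrays Pam had 0.56, Septin2 0.48 and Pllp 0.78. The ranking is a description over arrays that share their processing and their groups.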

How the data were processed

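The authors deposited 1 log2 signal for each probe set on each array, made with RMA per the submitters' processing notes. The RMA version, the array design file and the scan batches are not given in the sources used here, and any batch aligned with the groups cannot be told apart. RNA of 6 ug per array was labelled with biotin, per the labels' protocols. RMA includes quantile normalization, which hides a change common to every transcript. The number of arrays limits the precision.

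The table held 31099 probe sets. The 57 array controls were left out, and 31042 were tested. Symbols came from the platform annotation, updated by gene ID for 20758 probe sets, 68 keeping theirs, which gave 20826 probe sets with 1 symbol, 436 with several and 9780 unnamed here. Each gene is represented by its probe set of 1 symbol with the highest mean.

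limma 3.58.1 in R 4.3.3 fitted 6 group means to all 19 arrays, with eBayes, two-sided tests and Benjamini-Hochberg adjustment over 31042 probe sets (threshold 0.05). Residual and prior degrees of freedom were 13 and 2.76, or 11 and 4.38 without day 14 replicate 2 and day 49 replicate 2. It was tested on simulated data. Correlations over arrays used 100000 permutations in Python 3.11.15, and plots were drawn with matplotlib 3.10.9. The alternatives were array-median centring, a repeated quantile normalization, a filter at the median probe set, trend and robust eBayes, array weights, 1 probe set per gene, all probe sets of the 9 genes, the replicate block, only the groups compared, a beta-actin covariate, the arrays that stood apart left out, and each replicate left out. The deviations of like-numbered control and day 1 arrays correlated by 0.166, 0.117 and 0.269, while at the other times at least 1 pair was at or below 0.1.

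The 9 genes and all lists were chosen with earlier results of these data known. All 9 genes are named. Of each oligodendrocyte list the 4 genes with the smallest F test p and any called gene are named. Of other genes the 8 most like the 9 are named. Of the tissue lists Lum, which passed in 1 fit, and the 4 astrocyte genes with the smallest F test p are named. Promoter windows are RefSeq's, build GRCr8, which had no entry for Mog and Pmp2 in the table used.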

Additional observations from a re-analysis of the deposited data

Results flagged for a closer look

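In the 4 control arrays, Cnp in replicate 4 (9.97) lay apart from the other three, which lay between 10.17 and 10.20. The gap divided by the range was 0.868, above Dixon's 95% critical value for 4 samples. The 9 genes were each looked at in this way in the control group, and chance alone marks about 1 in 20 such groups.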

How the results depend on the processing

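The number of arrays, 3 at each time, limits the precision. Of the differences of single genes under the alternatives, 706 kept their sign and their side of the threshold, 83 that had not passed changed sign, and 6 passed where the fit of all arrays had none.

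At day 1 the fit of all arrays called 11 probe sets. The count was 175 with array weights, 19 with only the groups compared, 68 without both arrays that stood apart, 81 without them and with the beta-actin covariate, and 23 with that covariate alone. With the replicate block it was 3. Leaving out 1 replicate gave 0 to 13: 0 without day 1 replicate 2, 2 without control replicate 4, 5 without day 1 replicate 1, and 6 without control replicate 1 or 2. At day 3 array weights called 2 probe sets and only the groups compared 3, against 0. At day 14 array weights called 9, only the groups compared 1, and leaving out 1 replicate 0 to 1 (1 without day 14 replicate 1). At day 49 array weights called 6514, and leaving out 1 replicate 0 to 2435, the highest without day 49 replicate 1. The cause was not tested.

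Of the 9 genes, array weights called 2 at day 1 (Aspa and Pmp2), 3 at day 49 (Mog, Pmp2 and Ugt8), 1 from day 1 to day 3 (Aspa), 3 from day 14 to day 49 (Mog, Cnp and Ugt8) and 5 at any time (Mog, Cnp, Aspa, Pmp2 and Ugt8). Leaving out both arrays that stood apart called 1 at day 1 (Pmp2). Leaving out 1 replicate called 0 in each comparison.

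The median over the genes was -0.16 at day 1 and -0.34 at day 14 when probe sets below the median were left out, which removes 3 of the 9 genes. Both values are with all arrays, so that of day 14 includes day 14 replicate 2. At day 49 it was 0.039 with the beta-actin covariate and 0.028 over all 15 probe sets, against -0.07. Leaving out 1 replicate moved it between -0.02 and 0.05 at day 1, -0.05 and 0.03 at day 3, -0.04 and 0.04 at day 7, -0.08 and 0.02 at day 14, and -0.12 and -0.01 at day 49.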
